A study of Mus musculus with 6 samples.

Results

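Kinesins, dyneins and unconventional myosins are the motor proteins that carry cargo along microtubules and actin filaments, and the genes for their motor chains, light chains and accessory subunits were taken from the deposited table by symbol. The rule took Kif, Kifc, Klc, Dync, Dynl, Dctn and Dnah symbols and the Myo symbols of unconventional myosins, and left out 7 kinesins of mitosis. It found 76 genes among the 14016 rows of the table. The samples were 6 quadriceps muscles of mice, taken 7 days after volumetric muscle loss, a surgical removal of muscle tissue, with saline and no implanted material. Of these, 3 came from wild-type (WT) C57BL/6 mice and 3 from mice that the labels call GATA-1 mutant, the ΔdblGATA strain, which lacks a GATA site in the Gata1 promoter and has no mature eosinophils. Per the study's methods, the WT mice were female and 10 to 12 weeks old. The deletion is carried by every cell of the mutant, so it is not a model in which eosinophils alone were altered.

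The measure is the deposited mean over all 6 samples of log2 CPM, the count of a gene's reads scaled to the size of each library. It pools both genotypes and describes neither alone. No value per sample was analysed here, so no value below has a standard deviation, no test could be made, and orders of genes are given without knowing whether neighbours differ beyond the spread between mice. Levels of different genes were compared per length, and read-scale values are given beside them only to show how much of a difference comes with length. A level per kilobase below is the mean log2 CPM less log2 of the length, in kilobases, of the gene's longest coding transcript in GENCODE M21. In whole muscle, fewer cells of a type and less RNA per cell cannot be told apart.

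Kinesins walk along microtubules, most of them outward to the plus end, and cytoplasmic dynein walks back to the minus end with the help of dynactin. In most of these motors the heavy chain holds the site that splits ATP. In kinesin-1 and cytoplasmic dynein, light and intermediate chains tie the heavy chain to cargo. Axonemal dyneins bend motile cilia, and unconventional myosins move along actin or link actin to membranes. In muscle fibres, kinesin-1 with its light chains positions nuclei and dynein serves nuclei and endosomes, while the contractile force comes from conventional myosins that the rule did not take.

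The first pair of sequences is shown because 5 of the genes are near copies of each other. Dynlt1a, Dynlt1b, Dynlt1c and Dynlt1f encode the Tctex-type light chain of dynein, and Dynlt1-ps1 is a pseudogene of the family. The coding sequences of Dynlt1a, Dynlt1c and Dynlt1f were the same over 339 bases, and Dynlt1b differed from them by 1 base. The start-site windows of 300 bases for 2 of them, from RefSeq on GRCm38.p6, are printed 5′ to 3′ on the strand of the gene, with capitals for bases that were the same in the aligned stretch. Dynlt1c lies at chr17:6601529-6601828 on the plus strand and Dynlt1f at chr17:6655890-6656189 on the minus strand.
Dynlt1c: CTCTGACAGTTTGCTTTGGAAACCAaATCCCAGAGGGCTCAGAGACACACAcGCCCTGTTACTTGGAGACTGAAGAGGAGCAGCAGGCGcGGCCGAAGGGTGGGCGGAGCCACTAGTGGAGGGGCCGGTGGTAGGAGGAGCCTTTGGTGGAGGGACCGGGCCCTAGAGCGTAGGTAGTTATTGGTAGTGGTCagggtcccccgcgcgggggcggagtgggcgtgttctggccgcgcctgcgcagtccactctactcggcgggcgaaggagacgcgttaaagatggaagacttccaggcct
Dynlt1f: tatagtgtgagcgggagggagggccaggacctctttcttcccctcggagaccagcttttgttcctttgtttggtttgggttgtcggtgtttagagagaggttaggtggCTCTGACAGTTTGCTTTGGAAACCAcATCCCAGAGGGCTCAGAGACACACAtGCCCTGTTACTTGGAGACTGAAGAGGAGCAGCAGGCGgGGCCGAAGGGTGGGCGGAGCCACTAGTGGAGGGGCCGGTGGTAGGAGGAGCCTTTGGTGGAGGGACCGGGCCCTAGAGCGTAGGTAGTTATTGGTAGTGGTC
Of 192 aligned bases in these windows, 189 were identical, or 98.4%, and 3 differed.

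The second set shows start-site windows from both ends of the order of levels and of 1 gene without a value, with capitals for CpG dinucleotides. Dynlrb1, a roadblock light chain of dynein, had the highest level among members with a window. It has 2 windows. The one printed lies at chr2:155236283-155236582 on the plus strand and holds 12 CpG, and the other holds 20. Myo15, the motor of hair-cell stereocilia, had the lowest level of all members. Its window at chr11:60469089-60469388 on the plus strand holds 1 CpG. Dnah12, an axonemal dynein heavy chain, had no value. Its window, at chr14:26691304-26691603 on the plus strand, holds 1 CpG, the fewest of the members without a value. Kif12 tied with it, and Dnah12 was taken as the first by symbol. The 10 other axonemal dyneins without a value that had a window held 6 to 16.
Dynlrb1: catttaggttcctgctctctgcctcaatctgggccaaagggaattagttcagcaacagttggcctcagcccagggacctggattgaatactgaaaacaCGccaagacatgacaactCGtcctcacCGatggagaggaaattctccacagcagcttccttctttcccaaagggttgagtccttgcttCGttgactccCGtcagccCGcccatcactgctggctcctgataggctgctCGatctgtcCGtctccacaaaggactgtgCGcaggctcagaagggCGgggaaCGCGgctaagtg
Myo15: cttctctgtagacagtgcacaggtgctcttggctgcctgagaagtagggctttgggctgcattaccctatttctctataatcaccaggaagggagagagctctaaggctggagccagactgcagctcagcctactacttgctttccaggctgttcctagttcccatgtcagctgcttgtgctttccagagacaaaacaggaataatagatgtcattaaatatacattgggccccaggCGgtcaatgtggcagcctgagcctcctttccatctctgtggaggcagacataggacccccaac
Dnah12: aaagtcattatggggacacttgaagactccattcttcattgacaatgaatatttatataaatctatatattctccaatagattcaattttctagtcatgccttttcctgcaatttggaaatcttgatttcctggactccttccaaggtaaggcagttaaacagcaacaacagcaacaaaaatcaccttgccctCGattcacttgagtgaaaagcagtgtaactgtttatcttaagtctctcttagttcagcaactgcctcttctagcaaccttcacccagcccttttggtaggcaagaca
Of the 75 coding members with a value, 56 had at least 1 window, with a median of 21.5 CpG (the mean where a gene has several), and 76.8% of these windows held 10 or more. Of the 26 coding members without a value, 23 had a window, with a median of 11 CpG, and 56.5% held 10 or more. Among all coding genes the shares were 80.2% with a value and 22.0% without. Among members with a value the share was 77.3% above the median level of all genes and 76.5% at or below it, while the median CpG was 16 above and 25 at or below. The rank correlation of level per kilobase with CpG was 0.257 over the 56 members, against 0.177 over 10758 genes, as a description across genes.

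The motor genes covered a range of 11.18 log2 units per kilobase, from Myo15 at −4.15 to Dynll2 at 7.03. Their median was 1.68, below the median of 2.28 over the 13948 genes of the table that had a length. Of the 76, 31 lay above that median, 9 in the highest decile of all genes and 20 in the lowest decile. On the read scale the medians were close, at 3.99 log2 CPM for the members and 4.03 for all genes, and the longest transcripts had a median of 4672.5 bases against 3139. The members were therefore longer than the typical gene. Their median lay further below that of all genes per length than on the read scale. On the read scale the highest decile held 13 members and the lowest 11.

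Medians differed between motor chains and light or accessory chains. The 53 motor chains had a median of 0.59 per kilobase, and 13 of them lay above the median of all genes. The 23 light and accessory chains had a median of 4.69, and 18 lay above it. The difference of these medians was 4.10 log2 units per kilobase. Without the length correction it was 2.20, with 5.25 log2 CPM for light and accessory chains and 3.05 for motor chains. Their median lengths were 2.18 and 6.68 kilobases. Of the motor chains, 29 were kinesins and 19 unconventional myosins. Of the light and accessory chains, 9 were dynein light chains and 6 dynactin. Kif5b, at 5.36, lay near Klc1 at 5.50 and above the other kinesin light chains, while Kif5c and Kif5a lay below Klc1, Klc2 and Klc4. By longest transcript, Dync1h1 lay above Dync1li1 and below Dync1i2, Dync1li2, Dynll1, Dynll2, Dynlrb1 and Dynlt3. This order depended on the length used. By median transcript length Dync1h1, at 5.02, also lay above Dync1li2 at 4.93 and Dynlt3 at 4.89. By coding length Dync1h1, at 4.13, lay below all of these genes, Dync1li1 at 4.71 included. On the read scale only Dynll2 lay above Dync1h1, at 8.34 against 7.93 log2 CPM. Role and motor family cannot be told apart here.

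**Figure D1:**
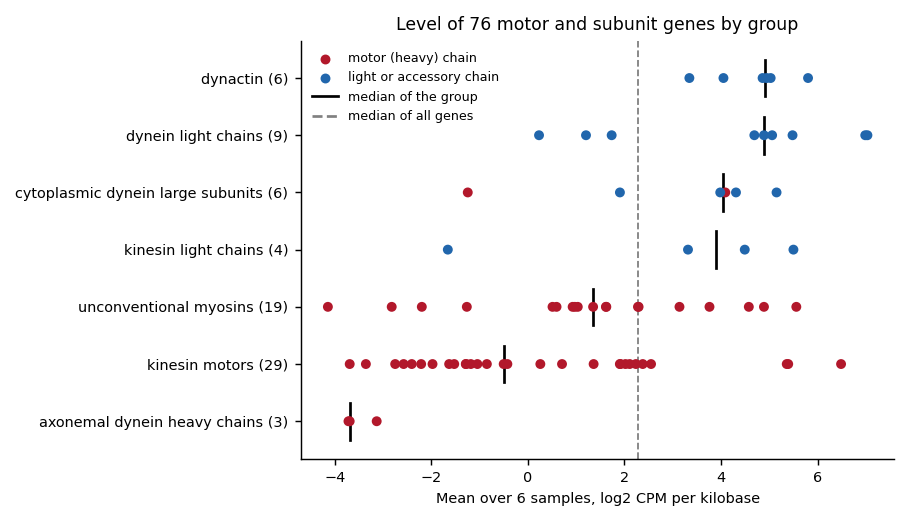
Level of each motor gene (points) as the authors' mean over 6 samples in log2 CPM per kilobase, by group, with the number of genes in parentheses, the group's median (black line) and the median of all genes (dashed line, 2.28). The 6 dynactin genes all sit right of the dashed line, and the 3 axonemal dynein genes sit left of −3.

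**Figure D2:**
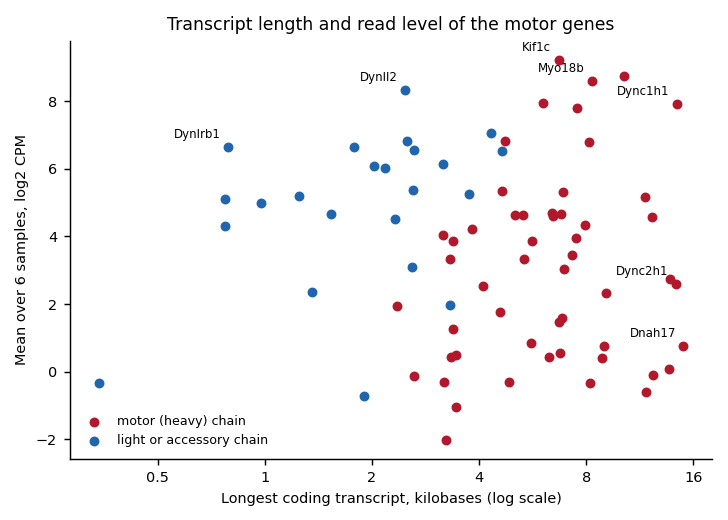
Longest coding transcript in kilobases (log scale) against the authors' mean log2 CPM over 6 samples, 1 point per gene, for motor chains and for light or accessory chains. Light chains sit at the left, and Kif1c has the highest read level, at 9.23 log2 CPM.

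Among the large subunits of cytoplasmic dynein-1, the motor that serves the cell body, every value measured lay above the median of all genes. The heavy chain Dync1h1 was at 4.09 per kilobase, with 7.93 log2 CPM on a transcript of 14342 bases. The intermediate chain Dync1i2, which binds dynactin, was at 5.15. The light intermediate chains Dync1li2 and Dync1li1, which hold cargo adaptors, were at 4.31 and 3.98, so that Dync1li2 made up 55.6% of the pair's summed level. The other intermediate chain, Dync1i1, known from neurons, had no value. The ciliary motor dynein-2 was lower. Its heavy chain Dync2h1 was at −1.25 and its light intermediate chain Dync2li1 at 1.91. Dync1h1 stood 40.4-fold above Dync2h1 per kilobase, and 70.5-fold by median transcript length.

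Per kilobase, light chains of dynein included the highest levels of any motor gene. On the read scale Kif1c, Kif1b and Myo18b, at 9.23, 8.75 and 8.61 log2 CPM, lay above all of these light chains. Dynll2, a light chain of the LC8 type that also binds class 5 myosins, was at 7.03 per kilobase and 8.34 log2 CPM. Its paralogue Dynll1 was at 5.06, so that Dynll2 made up 79.7% of the pair. Their coding sequences, 267 bases each, differed at 50 bases and were 81.3% identical. Dynlrb1 was at 6.99, and its paralogue Dynlrb2, known from cilia, had no value. Dynlt3, a relative of the Tctex type, was at 4.89. Dynll2 stood 7.70-fold above Dync1h1 per kilobase of longest transcript. The ratio was 4.11-fold by median transcript length and 69.4-fold by coding length, and 1.33-fold on the read scale.

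The Dynlt1 copies spread widely in spite of their common sequence. Dynlt1b was at 5.48, Dynlt1f at 4.69, Dynlt1c at 1.73, Dynlt1-ps1 at 1.20 and Dynlt1a at 0.23. Dynlt1b made up 57.8% of their summed level and stood 38.1-fold above Dynlt1a per kilobase, and 8.85-fold by coding length. The shares of their 31-base words that also occur in other genes ran from 76.6% in Dynlt1a to 100% in Dynlt1-ps1, so reads could be split among them and each copy's level is uncertain. Without these 5 genes the 4 other light chains had a median of 6.02, against 4.89 with them.

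Dynactin makes dynein processive. Its 6 shoulder, sidearm and pointed-end subunits lay between 3.34 and 5.80, and all 6 were above the median of all genes. Dctn2, which dissociates the complex when in excess, was highest, 5.50-fold above Dctn4 by longest transcript and 3.05-fold by coding length. Dctn3 was at 5.03, and Dctn1, the sidearm that binds dynein and microtubules, was at 4.95. The pointed-end subunits Dctn6 and Dctn5 were at 4.86 and 4.05, and Dctn4, also of the pointed end, was at 3.34. The genes of dynactin's actin-like filament, which the rule did not take, had all 6 values, with a median of 5.45. They ran from Actr10 at 3.60 to Capzb at 7.78. Dynein-1 and dynactin without the Dynlt1 copies came to 14 genes with a median of 4.92, all of them above the median of all genes. Of the copies left out, Dynlt1b and Dynlt1f also lay above it. Dynlt1c, Dynlt1-ps1 and Dynlt1a lay below it, at 1.73, 1.20 and 0.23. Dync1i1 and Dynlrb2 had no value and were not counted.

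**Figure D3:**
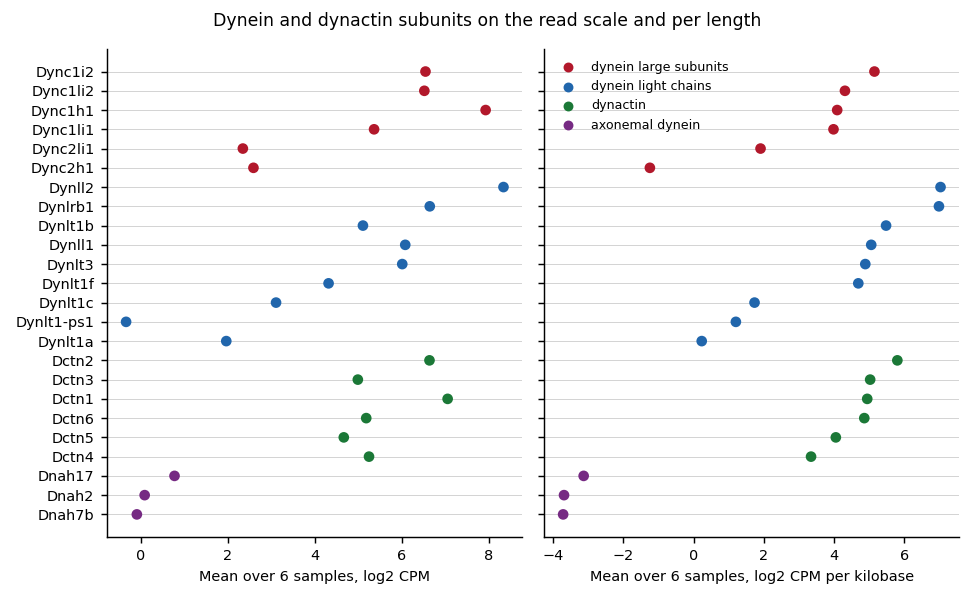
Authors' mean over 6 samples for each dynein and dynactin gene, in log2 CPM at the left and in log2 CPM per kilobase at the right, coloured by kind of subunit. Dync1h1, at 7.93 on the read scale, falls to 4.09 per kilobase, and Dynlrb1, with a short transcript, moves from 6.65 to 6.99.

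Axonemal dynein was at the other end. Only Dnah17, Dnah2 and Dnah7b had values, at −3.13, −3.69 and −3.72 per kilobase, which is 3 of 15 annotated coding genes. Their means were 0.77, 0.08 and −0.10 log2 CPM on transcripts of 14973, 13704 and 12314 bases. Dync1h1, of like length, stood 150-fold above Dnah17, and 282-fold by median transcript length. In Dnah7b, 63.5% of the 31-base words also occur in other genes, mainly Dnah7c, so its level is uncertain. Of 9 arm dynein partners and assembly factors, 7 had a value, from Dnai2 at −1.90 to Dnal4 at 3.18. Of 5 motile cilium markers, 4 had a value, with a median of −0.74, and Foxj1, the master regulator of motile cilia, had none.

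Kinesin motors were mostly low, with a few high genes. The 29 had a median of −0.50, and 5 lay above the median of all genes. Kif1c, Kif1b and Kif5b made up 80.2% of their summed level. Kif1c, a kinesin-3 that carries vesicles and integrins, was at 6.49 per kilobase. At 9.23 log2 CPM it was also the member with the most reads. Kif1b, which carries mitochondria and synaptic vesicle precursors, was at 5.39, 2.14-fold lower. Kif1a, their paralogue of neurons, was at −3.36, 431-fold below Kif1b. Kif13a, which carries endosomes, was at 2.55, 39.5-fold above its paralogue Kif13b, and 83.3-fold by median transcript length. The other kinesin-3 members, Kif13b included, lay between −2.75 and 2.02.

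Within kinesin-1 almost all of the level came from 1 heavy chain. Kif5b, the form found in most tissues, was at 5.36 and made up 98.4% of the class. The forms known from neurons, Kif5c and Kif5a, were at −1.18 and −2.21, 93.5-fold and 191-fold lower. Its light chains, which bind cargo, were less unequal. Klc1 was at 5.50 with 58.0% of their summed level, Klc2 at 4.49 with 28.8% and Klc4 at 3.32 with 12.8%. Klc3, known from testis, was at −1.66 with 0.405%. The ratio of Klc1 to Kif5b was 1.10 by longest transcript, 0.810 by median transcript length and 0.714 by coding length, so the order of these genes is not settled by the data.

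Kinesin-2 drives transport into cilia and carries vesicles, and its 3 motor chains were near each other. Kif3a was at 2.38, Kif3c at 1.90 and Kif3b at 1.36, with 45.2%, 32.5% and 22.3% of their sum. The order depended on the length used, since Kif3a was 1.39 times Kif3c by longest transcript and 0.710 times by coding length. In Kif3c, 44.0% of the 31-base words also occur in other genes, mainly in 1110002L01Rik. Kifap3, the subunit that joins them to cargo, was at 3.46. Of 20 intraflagellar transport genes, 19 had a value, with a median of 1.72. They ran from Wdr19 at −4.07 to Ift20 at 4.88.

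The other kinesins were at or under the median of all genes. Of kinesin-4, Kif21a was at 1.92, Kif7, a regulator of Hedgehog signalling at the ciliary tip, at −0.43 and Kif21b at −0.85. Of kinesin-8, which shortens microtubules, Kif18a was at −0.50, Kif19a at −1.28 and Kif18b at −1.29. Kif2a, a kinesin-13 that takes microtubules apart, was at 2.24, and Kif24 of the same class at −1.63. Kif26a and Kif26b of kinesin-11 were at 0.26 and −1.05, Kif9 at −1.98 and Kif15 at −2.58. Among the minus-end kinesin-14 genes, Kifc3 was highest at 2.11 and Kifc2 lowest at −3.69. Kifc1, a spindle motor, was at 0.71 and its near copy Kifc5b at −1.53, with 64.8% and 55.0% of their words shared, so these values are uncertain as well. The 7 mitotic kinesins that the rule left out had a median of −0.17, from Kif20b at −4.47 to Kif22 at 0.70.

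Of the 19 unconventional myosins, 7 lay above the median of all genes, and the median was 1.35. By longest transcript both class 18 genes were at the top and made up 50.8% of the summed level, a share that was 29.3% by median transcript length and 44.5% by coding length. Myo18b, a sarcomere protein of striated muscle, was at 5.56, and Myo18a, its relative in many tissues, at 4.89, 1.59-fold lower. Myo10, the motor of filopodia, was at 3.76. Its position depended on the length used. Myo18b stood 3.48-fold above Myo10 by longest transcript and 2.81-fold above it by coding length, but the ratio was 0.377 by median transcript length.

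Class 1 myosins link membranes to actin. Myo1c, which serves glucose transporter delivery, was at 4.58 and made up 50.2% of the class. Myo1e was at 3.14. Myo1f and Myo1g, known from blood cells, were at 2.28 and 1.62. Myo1d was at 0.93, and Myo1a, known from the intestinal brush border, was at −2.82, 169-fold below Myo1c. Of class 5, the vesicle carriers, Myo5a was highest at 1.62, Myo5c was at −1.27 and Myo5b at −2.20. Myo6, which moves to the minus end of actin, was at 1.35, and Myo7a, known from the ear and eye, at 1.03. Myo9a and Myo9b were at 0.97 and 0.59, and Myo19, which moves mitochondria, at 0.51. The conventional myosin heavy chains, for scale, had a median of 5.21 over 10 genes, from Myh11 at 1.36 to Myh4, a fast fibre form, at 12.06.

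**Figure D4:**
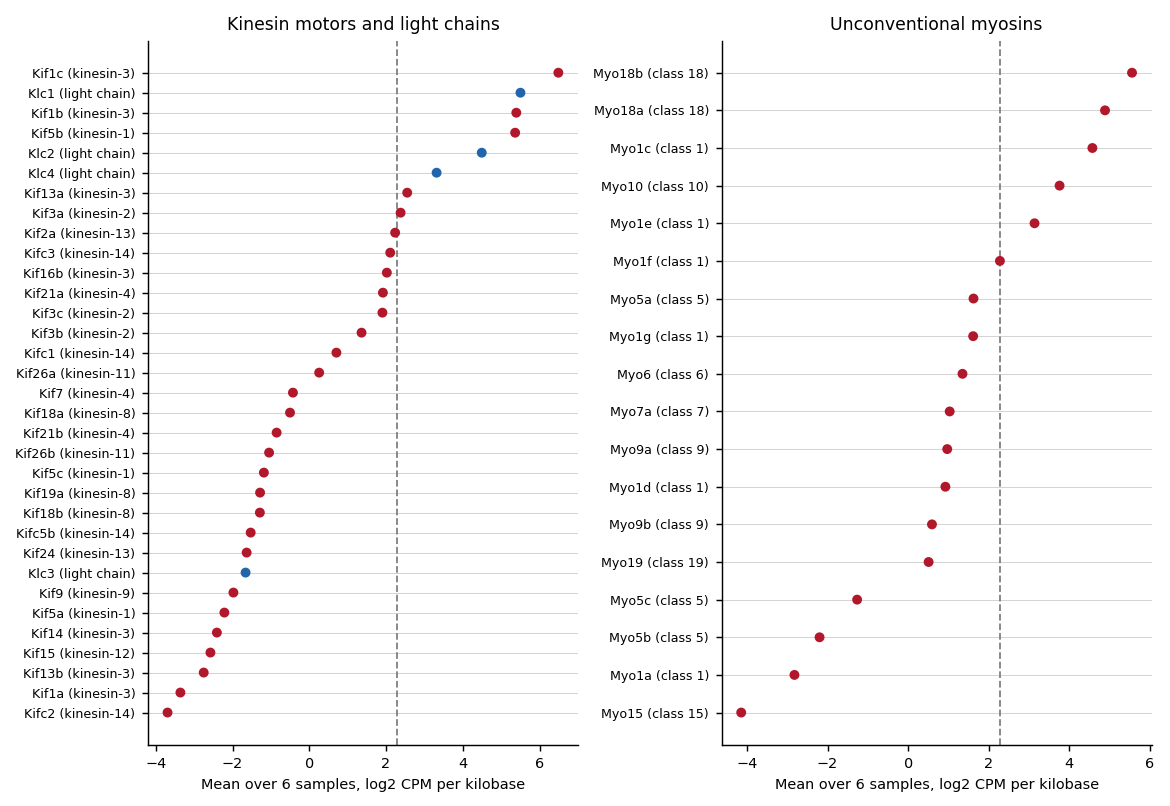
Authors' mean over 6 samples in log2 CPM per kilobase for kinesin motors (red) and kinesin light chains (blue) at the left and for 18 of the 19 unconventional myosins at the right, with the class of each gene in parentheses and the median of all genes as a dashed line. Kif1c, Klc1, Kif1b and Kif5b sit above 5, and Kif5c, Kif5a and Kif1a sit below −1.

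The annotation holds 101 coding genes of these groups, and 75 of them, or 74.3%, had a value here, against 62.5% of all coding genes. Among axonemal dynein heavy chains 3 of 15 had a value, and among the other groups 72 of 86, or 83.7%. All dynactin and kinesin light chain genes had a value. Without one were Kif2b, Kif6, Kif12, Kif17, Kif27 and Kif28 among kinesins and Myo1h, Myo3a, Myo3b, Myo7b, Myo15b and Myo16 among myosins. Per the study's methods a gene was kept if more than 1 CPM was counted in at least 3 samples, so a gene without a value is not shown to be silent. The lowest mean of any gene in the table was −4.08 log2 CPM, which is low for a table with that filter, and the offset added before the log was taken is not given in the sources used here. Low means, and folds against genes at low means such as Kif1a, depend on that scale. At the low end, 10 members, or 13.2%, had a mean of 0 log2 CPM or less, against 8.55% of all genes.

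**Figure D5:**
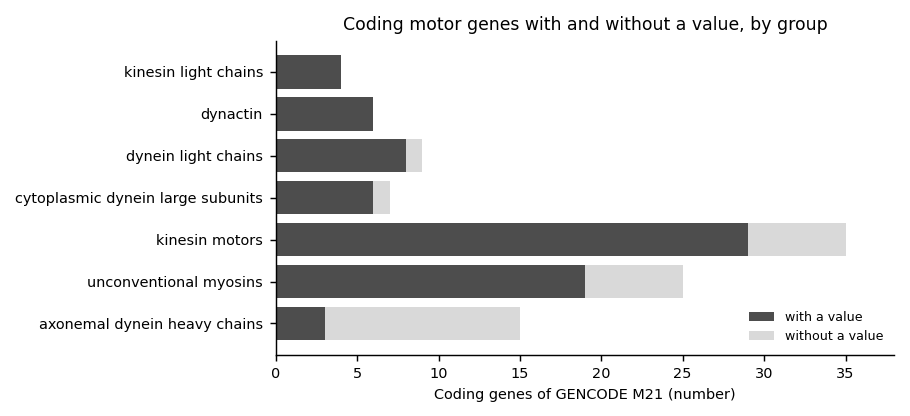
Number of coding genes in GENCODE M21 that the rule takes, by group, split into genes with a value and without. Of 15 axonemal dynein genes 3 have a value, and of 35 kinesin motors 29 do.

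Of the tracks and adaptors, tubulins were high, with all 10 listed genes between Tuba1c at 3.35 and Tuba4a at 6.94. Of 30 cargo adaptors and regulators, 27 had a value, with a median of 3.17. The lowest was Bicd1, a dynein adaptor, at −2.57. Pafah1b1, Ndel1 and Nde1, which regulate dynein, were at 4.66, 4.70 and 4.02.

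The tissue label was checked against markers. All 7 markers of muscle fibres had a value, with a median of 12.75. So did all 5 of satellite cells and regenerating fibres, with a median of 5.50, from Pax7 at 0.22 to Myh8 at 6.26. Other cells were present. Macrophage markers had a median of 3.92, fibroblast markers 8.07 and endothelial markers 4.53. Of 8 eosinophil markers only Ear2 had a value, at 0.61. Of 4 neuron markers only Tubb3 did, at 0.47, beside the low levels of Kif1a, Kif5a and Kif5c. Cycling markers had a median of 1.08 beside the low mitotic kinesins. The part of cell makeup in the levels of motor genes was not tested.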

How the data were processed

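Quadriceps RNA from 3 WT and 3 GATA-1 mutant mice was sequenced as paired-end, poly(A)-selected libraries. Per the study's methods, the authors pseudoaligned reads with kallisto, summarised them to genes with ensembldb, derived CPM in edgeR, dropped genes that did not exceed 1 CPM in 3 or more samples, applied TMM scaling and fitted limma. The kallisto version is not given in the sources used here. The submitters' processing notes name the GRCm39 (mm39) build. The deposited table gives, for each gene, the authors' mean log2 CPM over all 6 samples. Its other columns hold their genotype comparison (log2 fold change, moderated t, p-values before and after adjustment, log-odds) and were not used. No values per sample were analysed here, so the planned limma fit of genotype was not made, and depth per sample is unknown.

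Transcript lengths were read from GENCODE M21 (GRCm38). Of the symbols, 13458 were found as written and 490 by an earlier name, so 99.5% of genes had a length. All 76 members matched directly. Level per kilobase was mean log2 CPM less log2 of the longest coding transcript in kilobases (for the pseudogene, its longest transcript). A class share was the gene's part of the class's summed CPM per kilobase, from these log2 means. Transcripts were compared by shared 31-base words on either strand, and coding sequences with edlib. Windows of 300 bases around a gene's start came from RefSeq (GRCm38.p6), and CpG was counted in them. The code was tested on simulated data. Python 3.11.15, pandas 2.3.3 and matplotlib 3.10.9 were used.

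Members and lists were chosen with earlier results of these data known. The text names every member of cytoplasmic dynein, dynactin, kinesin-1, kinesin-2, myosin classes 1 and 5 and Dnah, in other classes the 3 highest and the lowest, and members with over 50% of words shared. A few genes that this rule or the lists would name are not reported here. Alternatives were other lengths, no length correction, filters on the mean and on shared words, direct symbol matches alone, and the removal of 3 gene groups.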

Additional observations from a re-analysis of the deposited data

How the results depend on the processing

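No paired analysis was possible because the values are means over all 6 samples, with none per mouse. For the same reason the fits without a trend, with a replicate block, with other pseudocounts and with each mouse left out were not run. Light and accessory chains lay above motor chains in each alternative that gave this difference, by 2.65 to 4.79 log2 units per kilobase against 4.10, and by 2.20 log2 CPM without length correction. None of them compared chains within a single motor complex, so they do not separate role from motor family. For the groups in the order axonemal dynein, cytoplasmic dynein, dynactin, dynein light chains, kinesin light chains, kinesin motors and myosins, the medians were −3.69, 4.04, 4.90, 4.89, 3.90, −0.50 and 1.35.

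By median coding transcript length, the medians were −3.68 for axonemal dynein, 4.46 for cytoplasmic dynein, 5.05 for dynactin, 3.98 for kinesin light chains, −0.33 for kinesin motors and 1.40 for myosins, and the difference of roles was 3.91. By coding length they were −3.66, 4.42 and 5.69 for axonemal dynein, cytoplasmic dynein and dynactin, 7.10 for dynein light chains, 4.45 for kinesin light chains, 0.070 for kinesin motors and 1.75 for myosins, with a difference of 4.79. Without length correction they were 0.082, 5.94, 5.22, 5.11, 5.34, 1.94 and 4.22 in the order of groups, with a difference of 2.20.

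With members under 20% of shared words, the medians were −3.41 for axonemal dynein, 6.02 for dynein light chains, 4.49 for kinesin light chains and −0.95 for kinesin motors, with a difference of 4.38. With means of at least 1 log2 CPM no axonemal dynein was left, the medians were 4.98 for dynein light chains, 4.49 for kinesin light chains, 1.91 for kinesin motors and 1.62 for myosins, and the difference was 3.10. With means of at least 3 they were 4.20 for cytoplasmic dynein, 5.06 and 4.49 for the light chains of dynein and kinesin, 2.17 for kinesin motors and 1.95 for myosins, with a difference of 2.65. Among alternatives chosen after seeing the data, leaving out the Dynlt1 copies gave 6.02 for dynein light chains and a difference of 4.28, leaving out dynactin a difference of 3.90, and leaving out axonemal dynein one of 3.88. The cause of these changes was not tested.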

Other observations

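Beside the near copies, 4 members had from 20% to 50% of their 31-base words in other genes. Among them were Kif3c at 44.0% (mainly 1110002L01Rik), Kif2a at 24.4% (mainly Dimt1) and Klc3 at 23.9% (mainly Ercc2). Of the 76 members, 33 shared no word with another gene and 64 shared under 20%.

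Over the 76 members, the rank correlation of transcript length with level per kilobase was −0.400, against −0.295 over all genes with a length. Length enters that level by its definition. With log2 CPM it was −0.091 for members and 0.059 for all genes. These are descriptions across genes of pooled means, and genes are not independent replicates.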
